A study of Homo sapiens with 20 samples.

Results

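HUWE1 siRNA set 3 was set against HUWE1 siRNA set 2 in HEK293T cells, with 4 RNA sequencing libraries in each group and therefore 8 of the 20 libraries of the series. The 8 libraries were chosen by their set number in the labels, and no measured value entered the choice. HEK293T is an established human embryonic kidney cell line that was transformed with adenovirus DNA and later given the SV40 T antigen. Every group of the study was made in this single line, so no second line or primary cell stands beside it. Set 1, a name used here for the libraries with no set number in the labels, comprised 4 libraries given HUWE1 siRNA and 4 given non-targeting siRNA, an siRNA with no intended target. Sets 2 and 3 comprised 4 HUWE1 siRNA libraries each and shared 4 non-targeting libraries, called the shared controls here. No genotype, drug or time after transfection separates the groups in the labels. The labels do not say how sets 2 and 3 differ, whether in siRNA sequence, dose, day or otherwise, and the siRNA sequences were not used here. The extraction protocol in the labels names UBA1 and E2 enzymes as siRNA targets, whereas the titles, descriptions and treatment or siRNA field give HUWE1 or non-targeting siRNA, and the groups follow the latter. The 4 libraries of a group were biological replicates per the series' design text, which does not say whether they came from separate cultures or days.

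HUWE1 is a very large E3 ubiquitin ligase of the HECT class, the class in which the ligase itself carries ubiquitin on a cysteine before passing it to the substrate. Reported substrates include MYC, the apoptosis regulator MCL1 and the tumour suppressor p53, so the enzyme has been studied mostly for its place in cell growth, DNA damage and cell death. An siRNA guides the Argonaute complex to a matching mRNA, which is then cut, so transcript abundance of the target gene is the direct readout of knockdown.

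Values are TPM, each gene's share of the library's transcripts after correction for transcript length, and differences are set 3 minus set 2 on the log2(TPM + 1) scale with their standard error (SE). A gene was called when the adjusted p from limma, a linear model with moderated variance fitted across all genes, was under 0.05. Of the 45372 symbols in the table, 15860 were at 1 TPM or above in 4 or more of the 12 libraries and were tested. Because TPM values are shares of a fixed total, fewer cells of a type and less RNA per cell cannot be told apart in these bulk samples.

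The libraries of sets 2 and 3 lay close together. Pearson correlation of log2(TPM + 1) was taken across genes, which are not independent replicates. It was 0.992 to 0.995 within set 2, 0.994 to 0.996 within set 3 and 0.989 to 0.995 between them. Within the shared controls, which enter the error of the fit, it reached lower, at 0.980 to 0.995. Mitochondrially encoded transcripts took up 15.03% ± 0.518 of TPM in set 2 and 13.99% ± 0.411 in set 3 (SD, n = 4 each; two-sided exact permutation p = 0.0286, adjusted to 0.0857 over 6 library measures). The 50 most abundant genes held 29.4% ± 0.641 of TPM in set 2 and 28.5% ± 0.219 in set 3, with the same exact p and adjusted p. Cytosolic ribosomal protein genes held 13.2% and 13.3% (exact permutation p = 0.8). Of 15 genes known from HEK293 cells, 12 were tested, among them those for vimentin and the neurofilament subunit NEFM. The summed level of the 15 was 1259.6 to 1482 TPM in set 2 and 1384 to 1481 TPM in set 3. Vimentin was the largest part, with means of 781 TPM in set 2 and 863 TPM in set 3. The neurofilament genes NEFM (147 and 121 TPM) and NEFL (89.6 and 78.5 TPM) went the other way. Of 6 endothelial markers 0 were tested, with a summed level of at most 0.681 TPM in set 2 and 0.527 TPM in set 3. The 8 differentiated tubule markers, 2 of them tested and 2 at 0 in every library, summed to between 6.29 and 7.33 TPM over both sets. Of the fibroblast, surface epithelium and leukocyte markers, 3 of 9, 2 of 9 and 2 of 8 were tested, with sums of at most 10.7, 10.9 and 8.66 TPM.

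HUWE1 transcript itself was below the shared controls in all libraries of both sets, and set 3 was slightly below set 2. HUWE1 lies on the minus strand at chrX:53532096-53686729 (GRCh38). It measured 95.6, 94.3, 91.6 and 96.8 TPM in the 4 set 2 libraries and 79.9, 89.7, 80.3 and 89.3 TPM in the 4 set 3 libraries, against 162, 167, 166 and 159 TPM in the shared controls. Each set 3 library was below each set 2 library, and every library of both sets was below every control. The set means were 94.6 ± 2.26 and 84.8 ± 5.42 TPM (SD), so set 3 held 89.6% of the set 2 level. The difference of -0.16 ± 0.045 (SE) was not called over all genes (limma adjusted p = 0.134). For HUWE1 alone, a two-sided exact permutation test had p = 0.0286, the smallest that 70 splits of 4 against 4 allow. Any gene whose values do not overlap between the sets reaches this p. That held for 13.2% of all tested genes, with 5.05% lower in set 3. With limma's weights for library quality HUWE1 was called, at a difference of -0.14 (adjusted p = 0.0308). Under those weights 2826 of the 15860 tested genes were called, so that call is not particular to HUWE1. Over all alternatives the adjusted p of HUWE1 lay between 0.0308 and 0.339.

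Between the sets, 82 of 15860 genes were called (0.517%), 49 of them higher in set 3 (0.309%) and 33 lower (0.208%). All differences were small: they ran from 0.17 to 0.67 in size with a median of 0.32, 10 genes reached 0.5 and 0 reached 1. The largest increases were in the long noncoding RNA LINC01411, the transcription factor gene KLF2 and INHBA, which encodes an activin subunit. The largest decreases were in LINC01786, the Mediator subunit gene MED19 and SRPRA, which encodes the signal recognition particle receptor on the endoplasmic reticulum. In all 82 the 4 values of one set lay clear of the 4 values of the other, which held for 2090 of all tested genes (13.2%). Of the 82 genes, 80 were protein coding, and their mean TPM ran from 1.82 to 563.9 with a median of 28.0. The median difference over all tested genes was 0.01. Median transcript length was 3181 bases for the higher genes, 3927 for the lower and 3034.5 for all tested genes with a length, and median GC content was 53.4%, 48.4% and 48.8%.

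The number of called genes depended on which libraries were in the fit. Without controls in the fit, the 8 libraries of sets 2 and 3 called 328 genes (2.07%), 214 higher (1.35%) and 114 lower (0.719%), which included all 82. Leaving 1 library out of the 12 gave 224 and 228 without control replicates 1 and 4, 68 without set 2 replicate 1, and between 20 (without set 3 replicate 3) and 34 without each of the remaining 9. Of the 82 genes, 12 were called under each of the 24 alternatives run: BTG3, CDKN1A, CRABP2, MED4, PRNP, FAM120A, MED19, PIM2, POC1B, RXRB, SKP2 and SRPRA. INHBA kept its call in every alternative in which it was tested, and each of the others lost it in 1 to 15. The loss was 15 of 24 for AKR1B1. It was 14 of 24 for AKTIP, BMP2, CLTB, INSIG1, PIK3CD, TAGLN2, THBD and UHRF1. Losses are given below for only some genes, so a call given without them need not be stable. None of the 82 changed sign under any alternative.

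**Figure D1:**
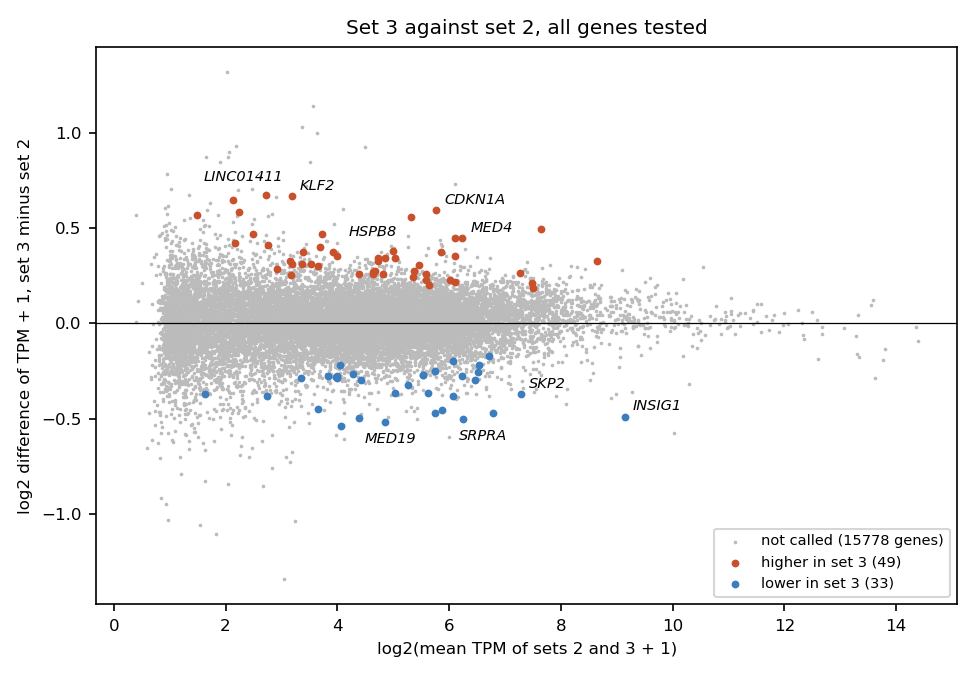
Each point is a tested gene, with log2 of its mean TPM in sets 2 and 3 plus 1 on the x axis and the set 3 minus set 2 difference of log2(TPM + 1) on the y axis. The 49 genes called higher and the 33 called lower in set 3 are coloured, and all lie between -0.54 and 0.67.

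CDKN1A encodes p21, an inhibitor of cyclin-dependent kinases and a classic p53 target, and SKP2 encodes the substrate receptor of the ubiquitin ligase that marks cell cycle inhibitors, p27 and p21 among them, for degradation. KLF2 encodes a zinc finger transcription factor, and INSIG1 a sterol-responsive membrane protein that holds the SREBP precursor in the endoplasmic reticulum. The promoters of these 4 genes are shown because they stand for both directions of the comparison, CDKN1A and KLF2 higher in set 3 and SKP2 and INSIG1 lower. Each is the RefSeq window from 250 bases before to 50 bases after the annotated start in GRCh38.p14, plus strand, and capitals mark GGGCGG (the GC box), TATAAA and TGACGTCA (the full cyclic AMP response element), searched on both strands, with overlapping matches counted separately. The windows are chr6:36678464-36678763 for CDKN1A, chr19:16324576-16324875 for KLF2, chr5:36151861-36152160 for SKP2 and chr7:155297628-155297927 for INSIG1.
CDKN1A: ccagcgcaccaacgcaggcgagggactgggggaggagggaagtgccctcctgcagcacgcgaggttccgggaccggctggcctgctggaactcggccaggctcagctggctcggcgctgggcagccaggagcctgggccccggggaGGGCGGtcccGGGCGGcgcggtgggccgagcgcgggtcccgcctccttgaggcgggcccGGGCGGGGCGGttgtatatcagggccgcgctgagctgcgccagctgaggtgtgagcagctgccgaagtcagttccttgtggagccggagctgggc
KLF2: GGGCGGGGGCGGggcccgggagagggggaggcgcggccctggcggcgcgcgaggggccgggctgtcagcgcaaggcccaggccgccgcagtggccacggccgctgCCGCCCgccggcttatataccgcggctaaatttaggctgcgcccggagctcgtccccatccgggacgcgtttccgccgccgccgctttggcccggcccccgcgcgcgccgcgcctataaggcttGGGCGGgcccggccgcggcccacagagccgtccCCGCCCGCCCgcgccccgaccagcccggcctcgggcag
SKP2: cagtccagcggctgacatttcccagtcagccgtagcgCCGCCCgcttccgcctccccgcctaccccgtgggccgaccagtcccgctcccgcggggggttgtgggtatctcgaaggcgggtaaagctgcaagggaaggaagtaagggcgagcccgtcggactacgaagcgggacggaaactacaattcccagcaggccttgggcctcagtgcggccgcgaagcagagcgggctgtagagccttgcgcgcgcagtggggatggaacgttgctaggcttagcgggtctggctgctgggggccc
INSIG1: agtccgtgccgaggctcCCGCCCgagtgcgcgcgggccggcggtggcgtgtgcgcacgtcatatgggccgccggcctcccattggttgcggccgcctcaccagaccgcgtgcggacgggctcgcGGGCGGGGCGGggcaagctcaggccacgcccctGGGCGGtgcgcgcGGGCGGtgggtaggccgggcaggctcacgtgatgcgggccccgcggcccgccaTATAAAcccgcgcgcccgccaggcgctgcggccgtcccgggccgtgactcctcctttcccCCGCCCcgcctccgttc

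The GC box occurred 4 times in the CDKN1A window, 6 times in KLF2, 1 time in SKP2 and 6 times in INSIG1, which alone of the 4 also held a TATAAA. Windows of MED4, MED19 and INHBA were searched as well and are not printed. They held 0, 2 and 0 GC boxes, and the INHBA window held 1 TATAAA. A RefSeq promoter was matched for 37 of the 49 genes called higher, 25 of the 33 called lower and 10895 of all 15860 tested. GGGCGG was in 75.7% of the higher, 76.0% of the lower and 71.0% of all matched promoters. TATAAA was in 5.41%, 12% and 5.46%, in the same order. TGACGTCA was in 3 promoters of the higher genes (8.11%), 0 of the lower and 3.27% of all. The sterol regulatory element was searched only as a short strict string. That string was in 0 promoters of either group and in 9 of the 10895 matched promoters (0.0826%). A string this rare cannot show whether a promoter lacks the element, in INSIG1 or in any other called gene. Matches of all these motifs describe the windows and are not evidence of binding.

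Among genes that restrain the cell cycle, CDKN1A and BTG3 were higher in set 3. CDKN1A (chr6:36676460-36687339) measured 41.7, 42.3, 42.7 and 43.5 TPM in set 2, 67.9, 66.4, 62.3 and 62.4 TPM in set 3 and 46.1, 40.9, 45.7 and 43.7 TPM in the controls. The set 3 libraries were above all other 8, and the set 2 and control values interleaved. The difference was 0.59 ± 0.046 (limma adjusted p = 0.00024), or 1.52-fold on TPM, one of the 2 smallest adjusted p in the comparison. BTG3 (chr21:17593653-17612947), from a family of antiproliferative proteins, measured 57.6, 57.1, 58.8 and 54.3 TPM in set 2 and 76.6, 75.1, 82.5 and 77.8 TPM in set 3, around control values of 62.1, 67, 64.5 and 73.3 TPM. Its set 2 libraries were all below and its set 3 libraries all above the 4 controls, with a difference of 0.45 ± 0.052 (adjusted p = 0.00429). TP53INP2, a regulator of autophagy, was also higher (0.37; adjusted p = 0.038; call lost in 11 of 24 alternatives).

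SKP2 and PIM2 were lower in set 3. SKP2 (chr5:36151989-36184319) measured 169, 166, 184 and 182 TPM in set 2, 129, 135, 138 and 138 TPM in set 3 and 182, 184, 190.2 and 176 TPM in the controls. Set 3 lay below all other 8 libraries, with a difference of -0.37 ± 0.044 from set 2 (limma adjusted p = 0.00429). PIM2 (chrX:48913182-48919024), a serine/threonine kinase gene of the PIM family, measured 25.3, 23, 21.5 and 24 TPM in set 2 and 17.9, 16.9, 15.1 and 15.5 TPM in set 3 (-0.50 ± 0.060; adjusted p = 0.00429), with the controls at 25.1, 24.9, 24.7 and 24.2 TPM. The adaptor gene GRB2, which links receptor tyrosine kinases to RAS, was lower as well (96.5 ± 4.13 to 78.4 ± 2.09 TPM, SD; -0.30; adjusted p = 0.00683). SPOPL, a substrate adaptor of cullin-3 ubiquitin ligases, differed by -0.30 and lost its call in 13 of 24 alternatives.

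**Figure D2:**
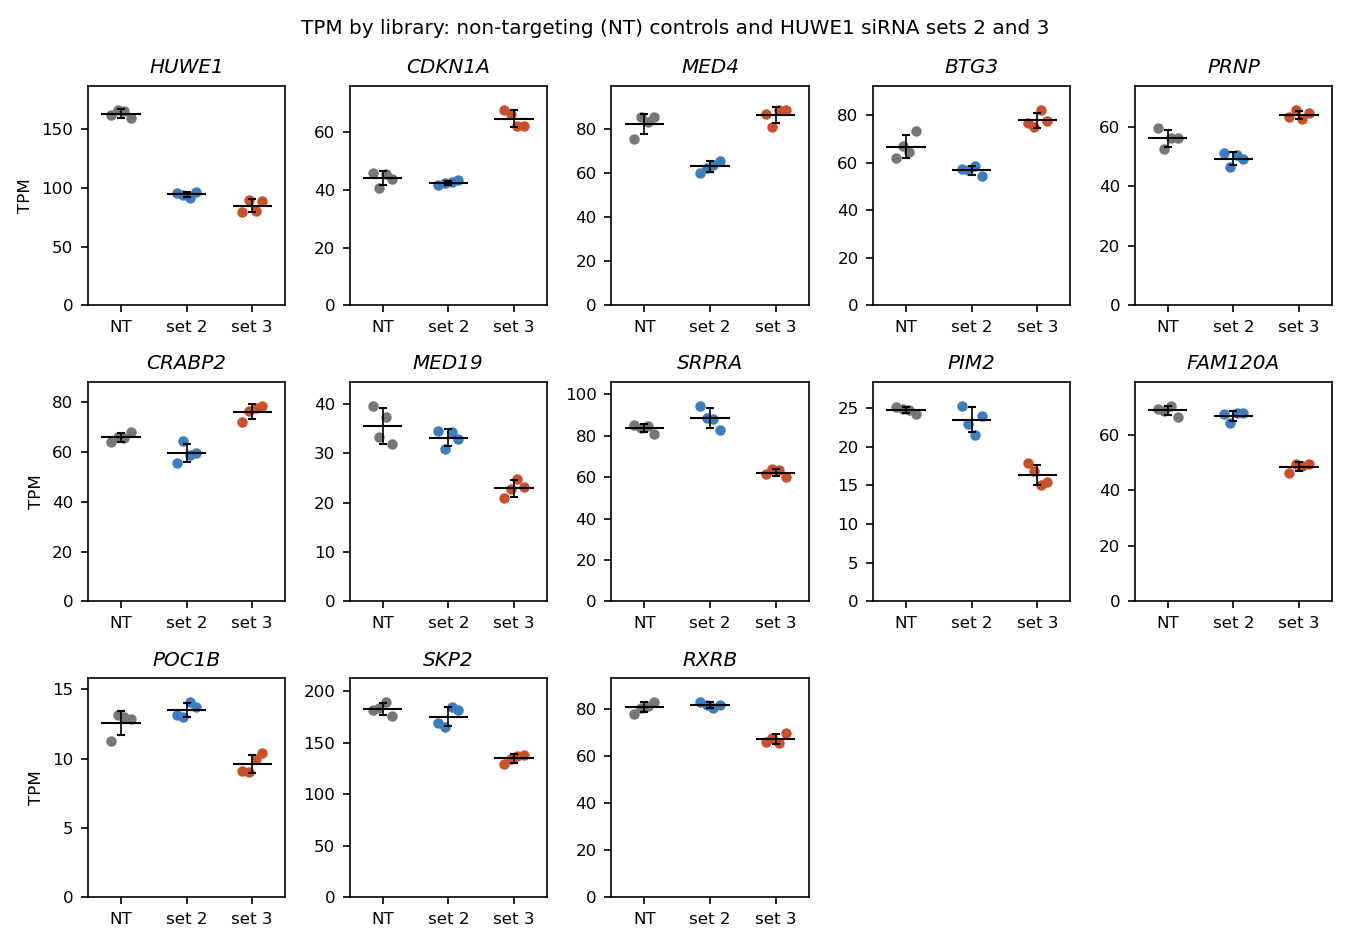
TPM of HUWE1 and of the 12 genes called under every alternative, with a linear axis from 0, in the 4 non-targeting (NT) control libraries and the 4 libraries each of sets 2 and 3; points are libraries, the line is the mean and the bar is the SD. Set 3 stands apart from set 2 in each panel, and in HUWE1 both sets lie far below the controls.

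Transcription factors and immediate early genes were represented among the higher genes by KLF2 and ETS1. KLF2 (chr19:16324817-16327874) measured 5.86, 5.58, 6.56 and 6.02 TPM in set 2, 10.4, 9.96, 11.7 and 8.63 TPM in set 3 and 5.61, 5.23, 4.79 and 6.02 TPM in the controls. The lowest set 3 library exceeded the highest of the other 8. The difference of 0.67 ± 0.086 (limma adjusted p = 0.00633) corresponds to 1.69-fold on TPM and lost its call in 1 of 24 alternatives. ETS1, the founding ETS factor, was higher by 0.31, and DUSP8, a phosphatase of MAP kinases, by 0.31. Of the 36 tested immediate early and ERK feedback genes, KLF2 was the 1 called (2.78%, against 0.517% of all tested genes). The list median was -0.05. Values did not overlap in 3 genes higher and 6 lower (25%, against 13.2% of all tested genes).

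Genes for the secreted signals INHBA, BMP2 and IGF2 were higher in set 3. INHBA, the beta A subunit of activin A, was scarce, at 2.53, 2.44, 2.48 and 2.29 TPM in set 2, 4.08, 4.69, 4.54 and 4.24 TPM in set 3 and 1.70, 1.66, 2.14 and 2.22 TPM in the controls. The set 3 values were all above the rest, with a difference of 0.65 ± 0.079 (limma adjusted p = 0.00432). BMP2, a bone morphogenetic protein, was higher by 0.26 (adjusted p = 0.0414), from 21.8 ± 0.241 to 26.3 ± 1.04 TPM (SD). PMEPA1, a membrane protein that dampens TGF-beta signalling, was higher by 0.41 (5.47, 4.60, 5.23 and 4.16 TPM against 6.32, 6.39, 7.25 and 7.11 TPM). INHBA and BMP2 were the 2 genes called among 25 tested in the BMP and TGF-beta list (8%, against 0.517% of all tested genes). The median of that list was -0.09. The growth factor gene IGF2 was higher by 0.42 at a low level (2.83 ± 0.178 to 4.15 ± 0.586 TPM, SD). The call was lost in 14 of 24 alternatives for BMP2, 13 of 23 for IGF2 and 12 of 24 for PMEPA1.

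Genes of the cell surface and matrix went both ways. CD44, the hyaluronan receptor, measured 3.91, 4.03, 3.84 and 3.16 TPM in set 2, 5.77, 5.78, 5.33 and 5.23 TPM in set 3 and 2.78, 2.58, 2.87 and 3.13 TPM in the controls. It was higher by 0.47 ± 0.075 (limma adjusted p = 0.022), with no overlap, and lost its call in 8 of 23 alternatives. ADAMTS1, a secreted metalloprotease that cleaves proteoglycans, measured 70.2, 73.3, 75 and 82.9 TPM in set 2 and 56.6, 59.1, 57.3 and 57.3 TPM in set 3 (-0.38 ± 0.051; adjusted p = 0.00683). Its set 2 values spanned those of the controls, at 78.7, 77.9, 78.2 and 71.5 TPM. Among 27 tested collagen and matrix protease genes these were the 2 calls (7.41%, against 0.517% of all tested genes). Values did not overlap in 8 genes higher and 4 lower (44.4%, against 13.2% of all tested genes). The microfibril gene MFAP2 (0.34), the glypican gene GPC3 (0.26) and thrombomodulin, THBD (0.29), were called higher. EFEMP1, a fibulin (-0.28), the semaphorin and VEGF coreceptor NRP1 (-0.27) and the sorting receptor SORL1 (-0.38) were called lower. ULBP2 (0.34) and MICB (0.27), both ligands of the NK cell receptor NKG2D, were higher in set 3. The receptor genes GPRC5A (0.47; 10.1 ± 0.909 to 14.3 ± 0.442 TPM, SD) and ADGRG6 (0.36) were also higher.

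The actin regulators LIMK1, TMOD1 and TAGLN2, grouped after their values were seen, were higher in set 3. LIMK1, the kinase that inactivates cofilin, measured 11, 10.2, 9.87 and 9.78 TPM in set 2 and 14.3, 13.2, 13.6 and 14 TPM in set 3 (0.40 ± 0.054; limma adjusted p = 0.00683). All 4 set 3 values were above the controls, at 10.3, 11.3, 10.4 and 11.7 TPM. TMOD1, which caps pointed ends of actin filaments, was higher by 0.34, and TAGLN2, an actin-bundling protein of the transgelin family, by 0.32 (356 ± 21.3 to 445 ± 10.2 TPM, SD; adjusted p = 0.0434). TAGLN2 was the 1 call among 23 tested actin and SRF target genes (4.35%, against 0.517% of all tested genes). It lost that call in 14 of 24 alternatives. In that list 5 genes were higher and 3 lower without overlap (34.8%, against 13.2% of all tested genes), and the median was 0.08. AMOT, the Hippo pathway scaffold angiomotin, was higher by 0.21.

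HSPB8, a small heat shock protein that works with BAG3 in chaperone-assisted autophagy, measured 33.6, 31.7, 32.7 and 27.4 TPM in set 2, 44, 45.4, 47.2 and 49 TPM in set 3 and 29.9, 28, 28.5 and 34.9 TPM in the controls. It was higher by 0.56 ± 0.076 (limma adjusted p = 0.00735), and every set 3 library was above the other 8. PRNP, the prion protein gene, measured 51.1, 46.4, 50.4 and 49.2 TPM in set 2, 63.2, 65.7, 62.7 and 64.4 TPM in set 3 and 59.4, 52.6, 56.1 and 56.2 TPM in the controls, which lay between the sets without overlap; the difference was 0.37 ± 0.045 (adjusted p = 0.00429). CRABP2, which carries retinoic acid to its nuclear receptors, measured 55.4, 64.2, 58.6 and 59.4 TPM in set 2 and 71.8, 76.4, 77.6 and 78.5 TPM in set 3 (0.35 ± 0.048; adjusted p = 0.00683). RXRB, a retinoid X receptor and so a partner of those receptors, was lower, at 83, 81.5, 80.1 and 81.6 TPM in set 2 and 65.8, 67.7, 65.4 and 69.6 TPM in set 3 (-0.28 ± 0.035; adjusted p = 0.00579). RXRB values in the controls, at 77.8, 80.2, 81.3 and 83 TPM, overlapped those of set 2.

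Lipid and membrane genes were called in both directions. INSIG1 was the most abundant called gene, at 709.8, 628, 621 and 676 TPM in set 2, 460.4, 434, 495 and 486 TPM in set 3 and 516, 719, 647 and 696 TPM in the controls. It differed by -0.49 ± 0.091 (limma adjusted p = 0.0416), its controls were all above set 3, and the call was lost in 14 of 24 alternatives. INSIG1 was the 1 call among 24 tested sterol synthesis genes (4.17%, against 0.517% of all tested genes), whose median was 0.03. LPCAT3, which builds polyunsaturated phospholipids, was higher by 0.37, the sphingomyelin synthase gene SGMS2 by 0.33 and the ceramide synthase gene CERS2 by 0.26 (140.0 ± 4.77 to 168 ± 1.69 TPM, SD). AKR1B1, aldose reductase, was higher by 0.19, and its call was lost in 15 of 24 alternatives. It was the 1 call among 24 tested NRF2 and redox genes (4.17%, against 0.517% of all tested genes). Of these 24 genes, 8 were higher and 3 lower without overlap (45.8%, against 13.2% of all tested genes). The vitamin C transporter SLC23A2 differed by -0.32. SLC2A14 differed by -0.37, but it is a near-identical copy of SLC2A3, so its value depends on how reads were assigned; SLC2A3 differed by -0.25 and was not called (adjusted p = 0.11).

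Of the called genes for organelle proteins, SRPRA, MLEC, OGDH and RHOT2 were lower and HIGD1A was higher. SRPRA (chr11:126262919-126269144) measured 94.5, 88.3, 87.9 and 82.9 TPM in set 2, 61.5, 63.9, 63.3 and 59.9 TPM in set 3 and 85.3, 83.8, 84.9 and 80.6 TPM in the controls. Set 3 lay below the other 8 libraries, with a difference of -0.50 ± 0.043 from set 2 (limma adjusted p = 0.000279), and at 70.3% of the set 2 level. MLEC, malectin, which binds glucosylated glycans in the endoplasmic reticulum, measured 117, 120.4, 129.5 and 139.8 TPM in set 2 and 94.2, 93.9, 87.8 and 88.4 TPM in set 3 (-0.47 ± 0.086; adjusted p = 0.038; call lost in 12 of 24 alternatives). OGDH, the first subunit of the 2-oxoglutarate dehydrogenase complex of the citric acid cycle, measured 57.3, 60.9, 62 and 65.6 TPM in set 2 and 44.7, 46.9, 40.8 and 43.9 TPM in set 3 (-0.47 ± 0.072; adjusted p = 0.0158). Control values of MLEC and OGDH were all above their set 3 values. RHOT2, which couples mitochondria to motor proteins, differed by -0.20. HIGD1A, a small protein of the inner mitochondrial membrane, was higher, at 174, 170.1, 161 and 155 TPM in set 2 and 221, 226, 238 and 246 TPM in set 3 (0.49 ± 0.079; adjusted p = 0.0209), but 1 of its controls, which measured 162, 184, 185 and 222 TPM, overlapped set 3.

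MED19 and MED4, subunits of the Mediator complex, which bridges transcription factors and RNA polymerase II, were called in opposite directions. MED19 (chr11:57703714-57712323) measured 34.4, 30.8, 34.3 and 32.9 TPM in set 2, 20.8, 22.7, 24.8 and 23.1 TPM in set 3 and 39.6, 33.2, 37.3 and 31.8 TPM in the controls. It differed by -0.52 ± 0.072 (limma adjusted p = 0.0086), and set 3 lay below all other 8 libraries. MED4 (chr13:48053323-48095131) measured 60.2, 62.2, 63.8 and 65.6 TPM in set 2, 86.8, 80.7, 88.6 and 88.8 TPM in set 3 and 75.6, 85.3, 83.2 and 85.4 TPM in the controls. It was higher by 0.45 ± 0.049 (adjusted p = 0.00318), and here it was set 2 that lay below all other 8 libraries. Against the shared controls, MED4 differed by -0.38 in set 2 (adjusted p = 0.0347) and by 0.07 in set 3 (adjusted p = 0.353). MED4 and HUWE1 were the 2 genes called in set 2 against the controls (0.0126% of those tested). MED19 and MED4 were the calls among 32 tested Mediator genes (6.25%, against 0.517% of all tested genes). In this list 3 genes were higher and 2 lower without overlap (15.6%, near the 13.2% of all tested genes), with a median of 0.04.

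FAM120A, FAM98A and the nuclear import genes KPNA3 and KPNA6 were lower in set 3. FAM120A (chr9:93451722-93566107), which encodes an RNA-binding scaffold protein, measured 67.5, 64.2, 68 and 67.7 TPM in set 2, 46.2, 49.4, 48.7 and 49.6 TPM in set 3 and 69.2, 68.7, 70.5 and 66.5 TPM in the controls. The difference of -0.46 ± 0.038 had an adjusted p of 0.00024 by limma, the other of the 2 smallest. FAM98A differed by -0.36 (36 ± 1.74 to 27.7 ± 0.867 TPM, SD). KPNA3 (-0.37) and KPNA6 (-0.25), both importin alpha adaptors for nuclear import, were lower, from 54.8 ± 3.67 to 42.3 ± 2.75 TPM and from 57.3 ± 3.49 to 47.9 ± 1.28 TPM (SD). The deacetylase gene HDAC3 (-0.22), the Integrator subunit INTS14 (-0.17), the RNA polymerase II phosphatase gene CTDSP1 (-0.27) and PRDM6 (-0.29) were lower too. UHRF1, which guides maintenance DNA methylation, went the other way, higher by 0.22 (adjusted p = 0.045).

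The centriolar protein gene POC1B (chr12:89419718-89526024) was lower, at 13.2, 13, 14.1 and 13.7 TPM in set 2 and 9.12, 9.06, 9.97 and 10.4 TPM in set 3 (-0.45 ± 0.061; limma adjusted p = 0.00683), with the controls at 11.3, 13.2, 13 and 12.8 TPM. The dynactin subunit DCTN4 differed by -0.25 and AKTIP, from the FTS and Hook vesicle transport complex, by -0.28. ERAP2, which trims peptides for class I presentation, differed by -0.22. The remaining lower genes were the carboxylesterase gene CES2 (-0.27), the soluble guanylate cyclase subunit GUCY1A1 (-0.29) and C19orf12 (-0.28).

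Endocytic genes CLTB (0.23), a clathrin light chain, and MICALL1 (0.23), a Rab effector of recycling endosomes, were higher in set 3. The signalling genes PIK3CD (0.25), a catalytic subunit of PI3 kinase, MRAS (0.30), a RAS family GTPase, and TRAFD1 (0.24), a feedback regulator of innate immunity, were higher. Enzyme genes in this direction were QPCT (0.28), which forms N-terminal pyroglutamate, the thiopurine methyltransferase gene TPMT (0.28), PGM2L1 (0.33), which makes glucose 1,6-bisphosphate, and the palmitoyltransferase gene ZDHHC22 (0.31). DCAF12 (0.20), a receptor of cullin-4 ubiquitin ligases, TUSC2 (0.31), EFHD1 (0.26), GSTCD (0.26) and SMCO4 (0.38) were higher as well. The low-abundance genes DNAH17, an axonemal dynein heavy chain (1.27 ± 0.286 to 2.36 ± 0.25 TPM, SD; 0.57), and LINC01411 (4.52, 3.86, 4.43 and 3.65 TPM against 6.75, 6.73, 7.62 and 7.44 TPM; 0.67 ± 0.116; limma adjusted p = 0.0323) completed the higher group. LINC01411 lost its call in 11 of 23 alternatives. LINC01786, the largest decrease, measured 18.7, 20.2, 18.2 and 18 TPM in set 2 and 12.7, 14.2, 10.3 and 13.4 TPM in set 3 (-0.54 ± 0.084; adjusted p = 0.0167).

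Genes on either side of the threshold had similar differences. Just inside lay INTS14 at -0.17 and ERAP2 at -0.22 (limma adjusted p = 0.0474 for each) and KPNA6 at -0.25 (0.0486). Just outside lay the membrane transport gene XK, with a difference of 0.24 (adjusted p = 0.0504), MYADM at 0.28 (0.0505) and TBC1D25 at -0.26 (0.0518).

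The shared controls entered the error of the fit but not the differences between the sets. Both sets were read against the same 4 control libraries, so their differences from the controls share that error and are given side by side. The control mean was nearer to set 2 than to set 3 in 78 of the 82 genes, 45 of the 49 higher and all 33 lower. The 78 include near ties: sets 2 and 3 differed from the controls by -0.22 and 0.22 in BTG3 and by -0.18 and 0.19 in PRNP. Set 2 values overlapped the control range in 73 genes, and set 3 values in 5. The shares over all tested genes were not computed for these counts, so whether they are unusual was not tested. Tested against the controls, 76 of the 82 were called in set 3, 43 of them higher and 33 lower. Of all genes 11.6% were called there, 7.45% higher and 4.15% lower. In set 2, 1 of the 82, MED4, was called, where 0.0126% of all genes were. The 82 were selected with the same set 3 libraries in the same fit, so their share called in set 3 is no independent support. Because p was adjusted within each comparison, differences of equal size can be called in set 3 and not in set 2. The genes with controls nearer set 3 were MED4, TUSC2, SGMS2 and ULBP2. TUSC2, named for a candidate tumour suppressor region, measured 35.5, 39.1, 38.9 and 40.6 TPM in set 2, 50.1, 50.4, 46.1 and 45.1 TPM in set 3 and 50.7, 48, 46.9 and 46.7 TPM in the controls. Every set 2 library was below every control, while 2 set 3 libraries lay within the control range and 2 just below it. The set 2 difference from the controls, -0.31, was not called (limma adjusted p = 0.12). For SGMS2 the differences from the controls were -0.25 in set 2 and 0.08 in set 3, and for ULBP2 -0.20 and 0.14, none of them called.

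**Figure D3:**
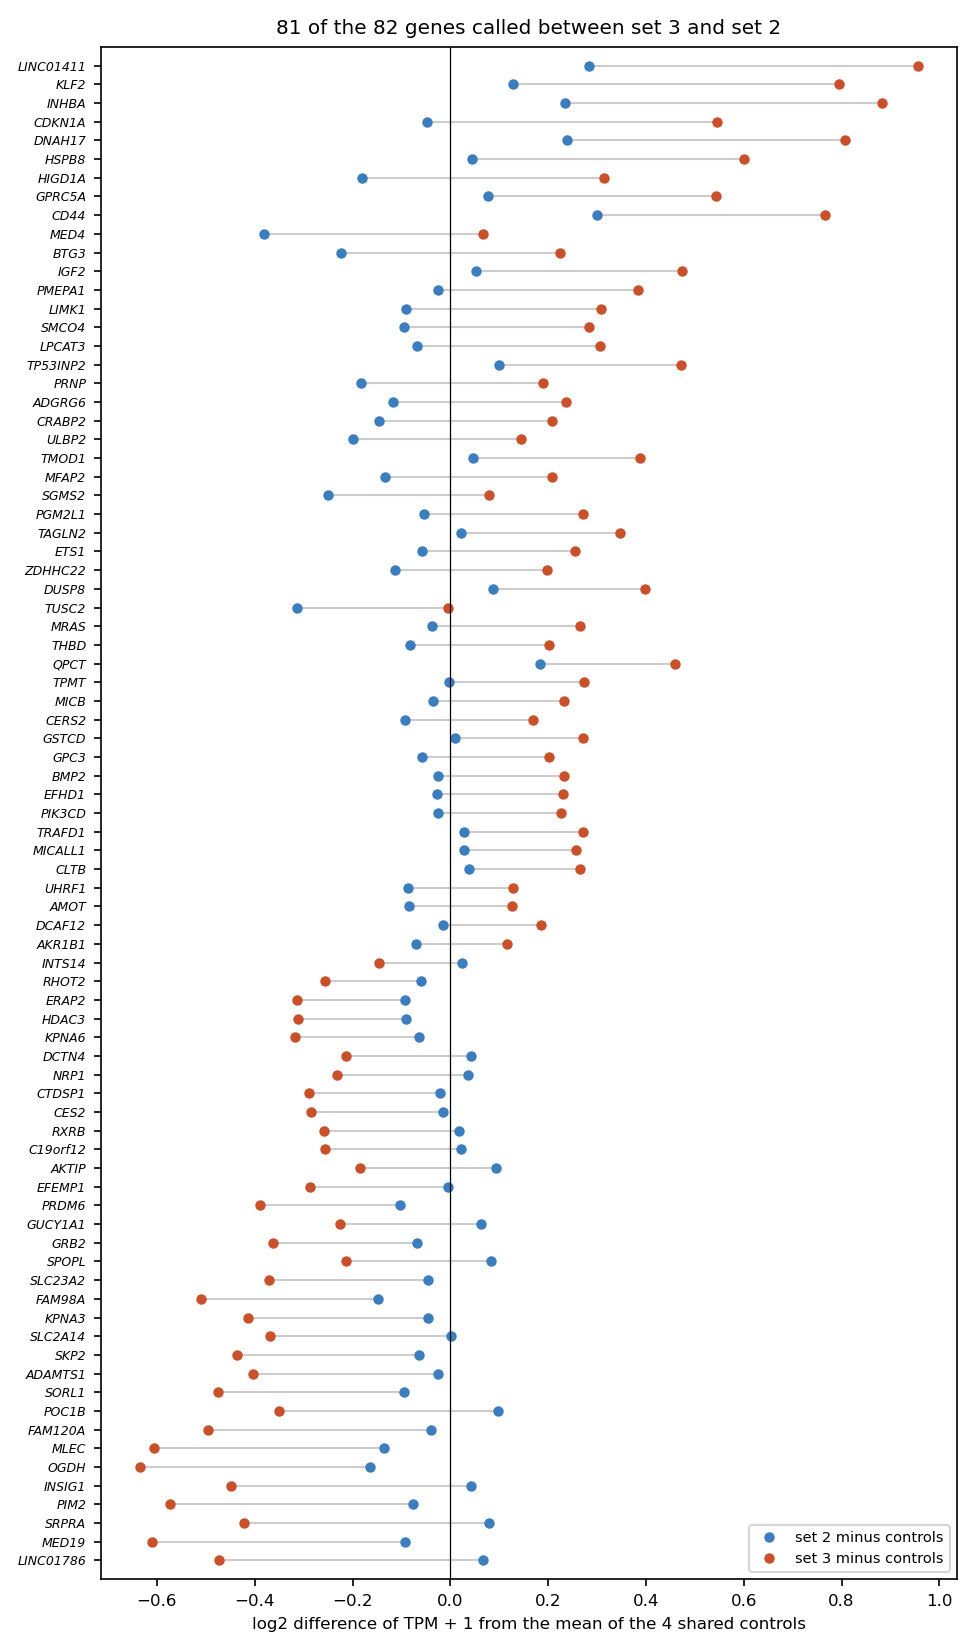
Differences of log2(TPM + 1) from the mean of the 4 shared controls (x axis) for 81 of the 82 called genes (y axis), with set 2 and set 3 as separate points joined by a line. Set 3 is the nearer to 0 in MED4, TUSC2, SGMS2 and ULBP2, and set 2 in all other genes drawn.

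Set 1 had its own controls and its own table, so its values are given beside those of set 3 and were not tested against them. Of the 49 genes higher in set 3 than in set 2, 48 were tested in set 1, where 11 were called higher and 11 lower than the set 1 controls. All 33 genes lower in set 3 were tested, and 1 was called higher and 18 lower. Over all 16057 genes tested in set 1, 30.3% were called, 12.3% higher and 17.9% lower. MED19 differed by -0.76 in set 1 (limma adjusted p = 1.35e-05), against -0.09 in set 2 and -0.61 in set 3 from their shared controls. SKP2 differed by -0.45 in set 1 (adjusted p = 8.94e-05), against -0.06 in set 2 and -0.44 in set 3. KPNA3 differed by -0.46 in set 1, against -0.05 and -0.41. CDKN1A differed by 0.04 in set 1 and was not called (adjusted p = 0.474), against -0.05 in set 2 and 0.55 in set 3. HSPB8, at -0.20 (adjusted p = 0.00632), and BTG3, at -0.20 (adjusted p = 0.00194), were lower than the controls in set 1, while set 3 differed from its controls by 0.60 and 0.22. KLF2 differed by -0.08 in set 1 (adjusted p = 0.545) and by 0.79 in set 3.

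In the 37 gene lists of pathways and complexes, 0 or 1 gene was called in most. The lists are therefore described by medians and by members whose values did not overlap, against 8.13% of all genes higher and 5.05% lower. Of all 15860 tested genes, 8400 had a difference above 0 and 7460 below. Genes of a list are not independent replicates, and their counts above or below 0 were not tested. The list of HUWE1 and its neighbours on chromosome X, 17 tested genes with HUWE1 counted among them, had a median of -0.01 and 0 called genes. The 26 HECT ligases had a median of 0.03 and 0 calls, with NEDD4L at 10.8 ± 0.508 and 12.7 ± 0.645 TPM (SD; 0.21; limma adjusted p = 0.086). The 20 reported HUWE1 substrates had a median of 0.01, which was below 0 under 3 of the scaling alternatives, and 0 calls. Within them DDIT4, an inhibitor of mTORC1 that is also on the ATF4 and FOXO lists, measured 1003, 1248, 1285 and 1432 TPM in set 2 and 852, 943, 746 and 774 TPM in set 3. Its values did not overlap, but its difference of -0.58 ± 0.165 was not called (adjusted p = 0.134).

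Lists of degradation genes had medians above 0 without a called gene. The 38 proteasome genes had a median of 0.13, with 36 of them above 0. Of the 38, 9 were higher without overlap (23.7%, against 13.2% of all tested genes in either direction). PSMD1 stood at 0.23 (limma adjusted p = 0.155). The 28 V-ATPase and lysosomal mTORC1 genes had a median of 0.10 and 10 genes higher without overlap (35.7%), led by ATP6V0D1 at 0.32 (adjusted p = 0.0716). The 43 lysosome and autophagy genes had a median of 0.07, with 13 higher and 2 lower without overlap (34.9%), and LAMP1 stood at 0.16 (adjusted p = 0.0675). The 14 fatty acid synthesis genes had a median of 0.12 with 1 higher without overlap (7.14%, below the 13.2% of all tested genes).

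Growth and cell cycle lists differed in sign. The 40 nucleolar and biosynthetic MYC targets had a median of -0.09, with 33 below 0 and 10 lower without overlap (25%, against 13.2% of all tested genes). SRM, spermidine synthase, measured 189, 197, 192 and 183 TPM in set 2 and 157, 161, 168 and 146 TPM in set 3, without overlap and without a call (-0.27; limma adjusted p = 0.0786). The 14 genes of the MYC and MAX network had a median of -0.03. The 36 mitosis genes had a median of 0.11, with 33 above 0 and 1 higher without overlap (2.78%, below the share of all tested genes). KIF4A stood at 0.21 (adjusted p = 0.123). The 45 replication and E2F genes had a median of 0.06, with UHRF1 called and 7 higher without overlap (15.6%, near the 13.2% of all tested genes). The 30 p53 targets had a median of -0.03, with CDKN1A the 1 call. Of the 30, 3 were higher and 1 lower without overlap (13.3%, near the share of all tested genes). The 16 BCL2 family genes had a median of 0.05 and 0 calls, with BAX at 0.12 (adjusted p = 0.19).

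The 13 mitochondrially encoded genes had a median of -0.13, beside the mitochondrial shares of TPM given above. Of them, 12 were below 0 and 3 lower without overlap (23.1%, against 13.2% of all tested genes). MT-ND2, a subunit of complex I, stood at -0.29 (limma adjusted p = 0.211). With TPM recomputed without these genes, 77 genes were called, among them 72 of the 82. The 50 nuclear-encoded respiratory chain genes had a median of 0.04, and the 77 cytosolic ribosomal protein genes one of 0.02, which was below 0 after quantile normalization and with TPM recomputed without mitochondrially encoded genes. The 30 histone genes had a median of -0.11, with 3 higher and 4 lower without overlap (23.3%).

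In the ATF4, unfolded protein response, heat shock, interferon, RNA interference and Wnt lists, 0 genes were called. The 44 ATF4 genes had a median of -0.05 and 5 lower without overlap (11.4%, against 13.2% of all tested genes). The 28 unfolded protein response genes had a median of -0.03 with 1 higher and 4 lower (17.9%). The 23 heat shock chaperones had a median of 0.06 with 1 higher (4.35%). DNAJC3, an inhibitor of the eIF2 alpha kinases, stood at -0.25 (limma adjusted p = 0.0827) and STIP1, the HSP70 and HSP90 organising cochaperone, at 0.20 (adjusted p = 0.14). The 26 interferon response genes had a median of -0.02 and 0 calls, with BST2, tetherin, at 18.8 ± 0.854 and 24.1 ± 2.39 TPM (SD; 0.34; adjusted p = 0.121). The 17 genes of the RNA interference machinery had a median of 0.05 and 0 calls. The 24 Wnt genes had a median of 0.02 and 4 higher without overlap (16.7%), and CCND1, cyclin D1, stood at 0.27 (adjusted p = 0.088). The 34 hypoxia and glycolysis genes (median 0.02), the 40 splicing factors (0.05), the 28 translation factors (0.04), the 19 tubulin and centrosome genes (0.04), the 14 lipid droplet genes (-0.04), the 18 FOXO and MondoA targets (-0.03) and the 50 mitochondrial ribosomal protein genes (-0.02) held 0 calls each.

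**Figure D4:**
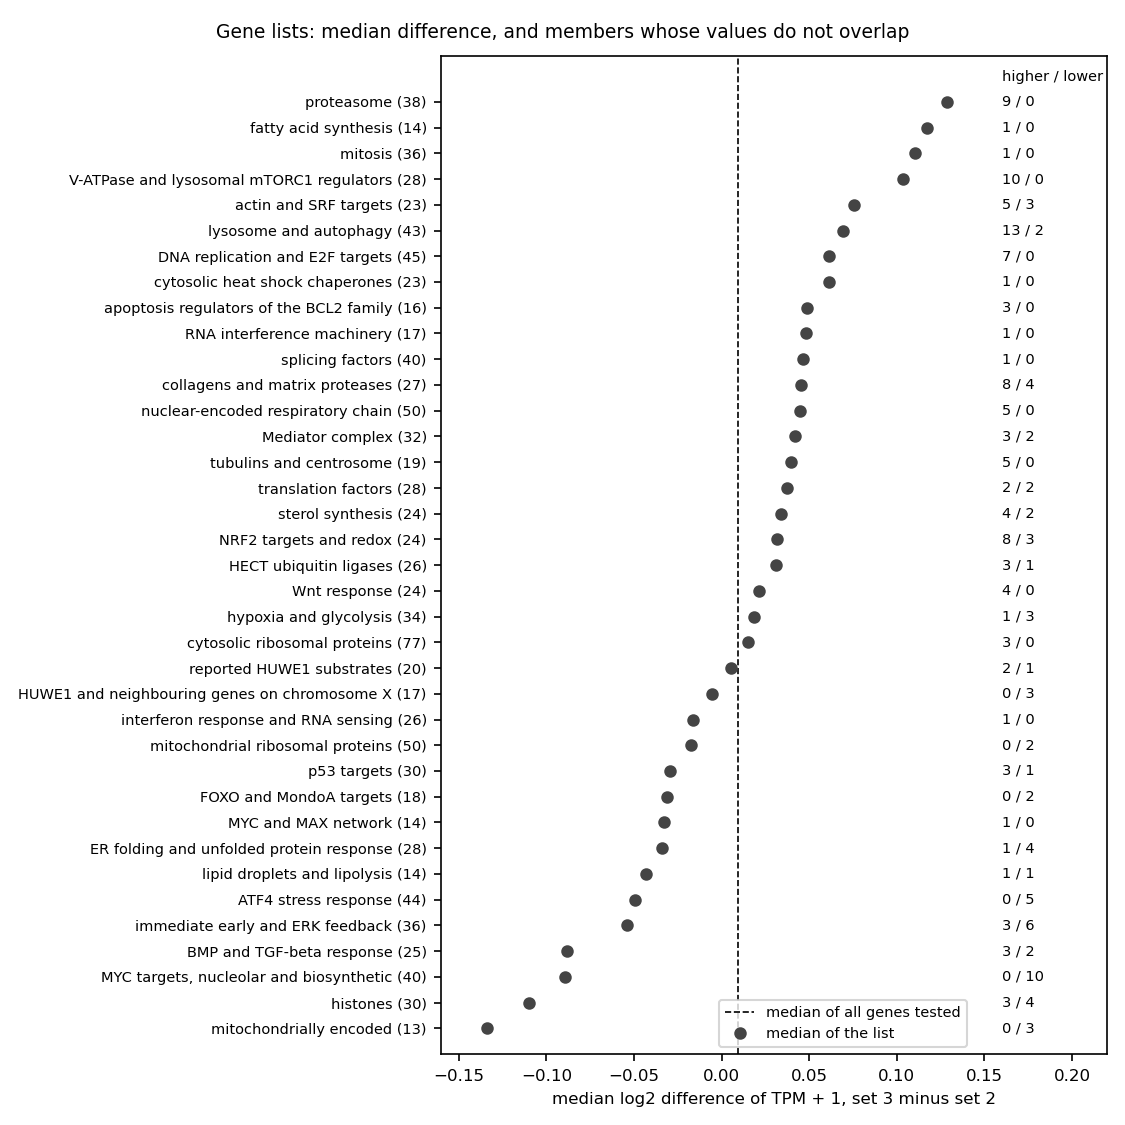
Median set 3 minus set 2 difference of log2(TPM + 1) for each of the 37 gene lists (points, x axis), with the number of tested genes in brackets and, at the right, the number of members higher and lower without overlap between the 4 and 4 values. The dashed line is the median of all 15860 genes tested, 0.01; list medians run from -0.13 for mitochondrially encoded genes to 0.13 for the proteasome.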

How the data were processed

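RNA was sequenced as stranded mRNA libraries on an Illumina instrument, per the labels' protocols. Gene values in TPM were deposited by the authors in 2 tables, set 1 apart from sets 2 and 3, on genome build hg38 per the submitters' processing notes. Aligner, counter and annotation: not given in the sources used here. TPM sums to the same total in every library, so depth is unknown and no counting error can be given.

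After the transformation log2(TPM + 1), genes at 1 TPM or above in 4 or more of 12 libraries entered limma (version 3.58.1, under R version 4.3.3) with a mean-variance trend. One model of 12 libraries gave set 3 minus set 2 and each set minus the shared controls. A Benjamini-Hochberg adjusted p under 0.05 was a call. The pseudocount of 1 makes differences of low genes too small. Because each table has its own normalization, no test spans them. Gene positions come from GENCODE 29, which held 41180 of the 45372 symbols. Of 1199 entries in 37 gene lists and 6 marker lists, 1196 were found.

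The rule for genes given in full took HUWE1, then the 12 calls with the largest difference in each direction whose mean reached 5 TPM in a set and whose values did not overlap, passing over clone-type names. For each list it took up to 2 called members with the smallest p, or else the member with the smallest p by value only. Every other called gene, the genes beside the threshold, and the grouping of called genes by role were added after their values were seen. Of the 82 called genes, 1 is counted but not reported by name here. The libraries and lists were chosen with earlier results of these data known. The limma procedure was tested on simulated data.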

Additional observations from a re-analysis of the deposited data

Results flagged for a closer look

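Among 122 groups of 4 values, 7 held a library whose gap to its nearest neighbour exceeded Dixon's 95% critical share of the group's range, where chance gives about 1 in 20. FAM120A was 64.2 TPM in 1 set 2 library, below the 3 others, and still above every set 3 value. In set 3, 1 library per gene stood apart, at 51.2 TPM for MXD4, a MAX partner that opposes MYC, at 9934 TPM for the complex I gene MT-ND2, at 51.0 TPM for the mitochondrial ribosomal gene MRPL32 and at 17.2 TPM for the cyclin D1 gene CCND1. Histone genes stood apart in 1 set 3 library at 0.268% of TPM. The slope of a library's deviation with log2 transcript length stood apart in 1 set 2 library at -0.0375 per log2 unit.

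PRNP, at a difference of 0.37, and BTG3, at 0.45, had all 4 set 2 libraries below and all 4 set 3 libraries above every shared control. The difference between the sets was tested in both (limma adjusted p = 0.00429 for each). Against the controls, BTG3 differed by -0.22 in set 2 (limma adjusted p = 0.417) and by 0.22 in set 3 (adjusted p = 0.025). PRNP differed by -0.18 in set 2 (adjusted p = 0.417) and by 0.19 in set 3 (adjusted p = 0.0264). The differences of the 2 sets were similar in size in each gene. Because p was adjusted within each comparison, the calls in set 3 alone do not show a larger departure there.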

How the results depend on the processing

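The 82 called genes became 42 with no filter on low values, 231 after removal of length and GC trends, 328 in the fit of sets 2 and 3 alone, 2826 with library weights and 17 with the replicate number as a block. Leaving out 1 library gave 20 to 228 calls. Of the 82 genes, 42 kept their call with no filter, 16 with the replicate block and between 19 and 82 without 1 library; the cause was not tested. The share of calls higher in set 3 was 59.8%, and it moved to 50% after scaling by median ratios, 52.8% after quantile normalization and 50.6% once mitochondrially encoded genes were left out.

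Genes without overlap numbered 2386 to 4546 with 1 library left out (4546 without set 2 replicate 1, 3299 without set 3 replicate 2), where fewer values have to be apart. The HUWE1 difference was -0.14 with library weights (adjusted p = 0.0308), past the threshold, and -0.16 with the replicate block (adjusted p = 0.189). Same-numbered libraries of sets 2 and 3 deviated together with correlations of -0.249 to 0.110. Of these, 0 libraries matched their own number best, so the numbers were not taken as pairs. Between same-numbered controls and set libraries the correlations were -0.481 to 0.0389 for set 2 and -0.0266 to 0.407 for set 3. Of the results for single genes, 1079 kept direction and side of the threshold, 168 lost the call, 45 gained it and 0 reversed. The 1079 pool called genes with named genes that were not called and stayed so. They are therefore no measure of how stable the calls were.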
